A study of Homo sapiens with 6 samples.

Results

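The genes described here are the numbered zinc finger genes of human chromosome 19. They were chosen by name and place: every row of the deposited count table whose symbol is ZNF, a number and at most 1 further letter, and whose position is on chromosome 19. This gave 158 genes of the 30947 in the table. They were measured by RNA sequencing of Cal27, an established human oral squamous cell carcinoma line, with 3 libraries after lentiviral knockdown of the RNA-binding protein DAZAP1 and 3 control libraries. The control is called an empty vector in one label and a control sequence in another, and which of these it was, with or without a hairpin, is unknown. The labels name a single knockdown in 1 cell line, with no second construct, and the labels do not say whether the 3 libraries of a group came from separate cultures. The p-values below therefore measure the spread between these libraries, which may be technical.

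Most of these genes encode C2H2 zinc finger proteins, in which each finger folds around a zinc ion held by a pair of cysteines and a pair of histidines and a row of fingers reads a DNA sequence. Chromosome 19 holds large clusters of such genes, formed by repeated local duplication, and many of them also encode a KRAB domain. The KRAB domain recruits TRIM28 (KAP1), which brings the histone methyltransferase SETDB1 and HP1 proteins to the bound DNA, and many KRAB zinc finger proteins repress transposable elements.

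The counted totals were 18547236, 18955230 and 18932743 in the controls and 17815862, 16930894 and 16333542 after knockdown. DAZAP1 itself fell from 265.3 ± 10.9 to 72.9 ± 5.20 CPM (counts scaled to the library total after TMM adjustment, edgeR's trimmed mean of M-values; SD, n = 3 each), or 3.64-fold. Of the markers of the labelled squamous epithelium, 8 of 8 were found, with a summed level of 3653 to 3797 CPM in the controls and 4244 to 4308 CPM after knockdown. They did not all move with the sum. In the test described below 5 were higher, SFN (846 to 440 CPM) and EPCAM were lower, and TP63 did not pass. The summed levels of markers of other cell types were lower. Leukocyte markers (4 of 5 in the table) summed to 0.694 to 1.58 CPM in the controls and 2.18 to 2.83 after knockdown, fibroblast markers (3 of 5) to 9.39 to 12.8 and 17.9 to 18.6, endothelial markers (3 of 4) to 13.8 to 16.7 and 46.3 to 51.7, and neuronal markers (3 of 3) to 5.62 to 5.90 and 7.15 to 7.45. The endothelial rise was in CDH5, while the defining marker PECAM1 had 0, 4 and 0 counts in the controls and 4, 6 and 10 after knockdown. The defining leukocyte marker PTPRC had at most 2 counts in any library. CD14, also on the leukocyte list, had 22, 11 and 17 counts in the controls and 43, 44 and 31 after knockdown. CD14, the 3 fibroblast markers found (COL1A1, COL1A2 and PDGFRB) and the neuronal marker SYT1 were called higher, as were 26.9% of all genes tested. The part of these shifts in the values below was not tested.

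After knockdown 30 of the zinc finger genes were higher and 25 were lower, 78 did not pass the test, and 25 had too few counts to be tested. The test was edgeR's quasi-likelihood test fitted on all 15374 genes with enough counts, with Benjamini-Hochberg adjustment over them and a threshold of 0.05. The 55 calls are 41.4% of the 133 zinc finger genes tested, while 54.2% of all genes tested were called. Those called higher were 22.6% of the members tested against 26.9% of all genes, and those called lower 18.8% against 27.4%. The 3 knockdown values lay entirely above or below the 3 control values in 62 members (46.6%), and in 58.9% of all genes tested. In bulk RNA, fewer cells of a type and less RNA per cell cannot be told apart.

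The members did not move 1 way as a block. Their median log2 fold change was 0.03, against 0.00 for all genes tested, with quartiles at −0.19 and 0.29 (all genes −0.23 and 0.29). Among the called members the median size of the change was 0.39 on the log2 scale, and 0.37 among all called genes. At a size of at least 0.5 there were 10 higher and 8 lower called members (7.52% and 6.02% of those tested, against 12.3% and 7.27% of all genes). A change of at least 2-fold was fitted in 2 members, ZNF812P and ZNF599 (1.5%), and in 7.17% of all genes tested. DESeq2, as an alternative, called 17 members higher and 15 lower, and 39.3% of all genes with an adjusted p. The direction split depended on the scaling: 54.5% of the called members were higher with the scaling used throughout, 67.9% (38 higher, 18 lower) with upper-quartile scaling and 41.1% (23 higher, 33 lower) when a trend of the fold change with gene length was removed. All called genes moved with it: 49.5% of them were higher with the scaling used throughout, 57.3% with upper-quartile scaling and 38.7% with the length trend removed. Summed over all members, the level was 1812, 1827 and 1872 CPM in the controls and 1774, 1774 and 1765 CPM after knockdown. The means were 1837 ± 31.4 and 1771 ± 5.12 CPM, and the groups did not overlap. This depended on the scaling: divided by the plain library totals, a setting added after the data were seen, the sums were 1789, 1805 and 1849 in the controls and 1796, 1798 and 1785 CPM after knockdown, and the groups overlapped.

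**Figure D1:**
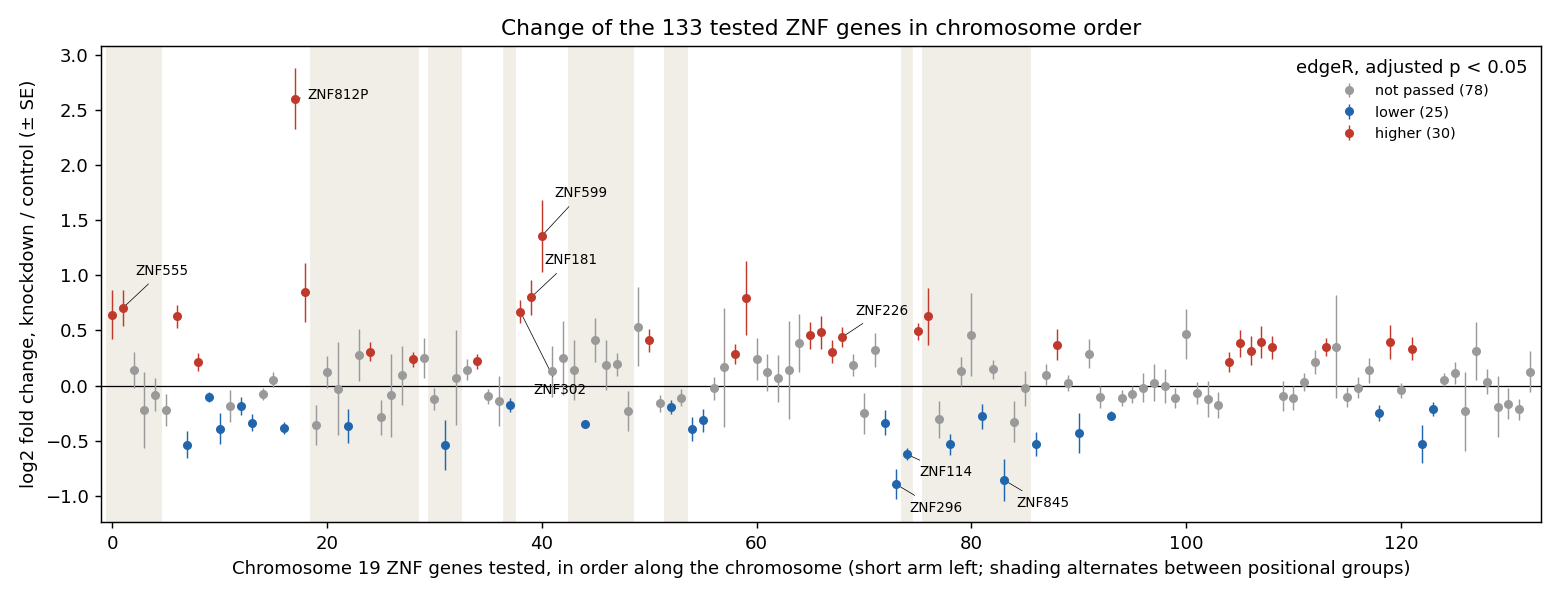
Log2 fold change (knockdown over control, with its SE) of the 133 chromosome 19 ZNF genes tested, in order along the chromosome, coloured by the outcome of edgeR's quasi-likelihood test; shading alternates between positional groups. The 30 higher and 25 lower genes lie along the whole chromosome, and 3 of the higher ones, ZNF302, ZNF181 and ZNF599, are neighbours.

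These genes were expressed at low levels. The median over the members tested was 1.72 FPKM (fragments scaled to gene length and library total, on which genes can be compared), with a range of 0.0752 to 33.4 FPKM, against 3.97 FPKM for all genes tested. Low counts limit the test, and the share called rose with the level. Among members with a mean under 5 CPM, 11 of 45 were called (7 higher, 4 lower; 24.4%, all genes 29.6%). Between 5 and 20 CPM, 18 of 61 were higher and 10 lower (45.9%, all genes 52.0%). At 20 CPM or more, 5 of 27 were higher and 11 lower (59.3%, all genes 69.9%). In that top class 31.2% of the called members were higher, and 40.9% of all called genes.

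**Figure D2:**
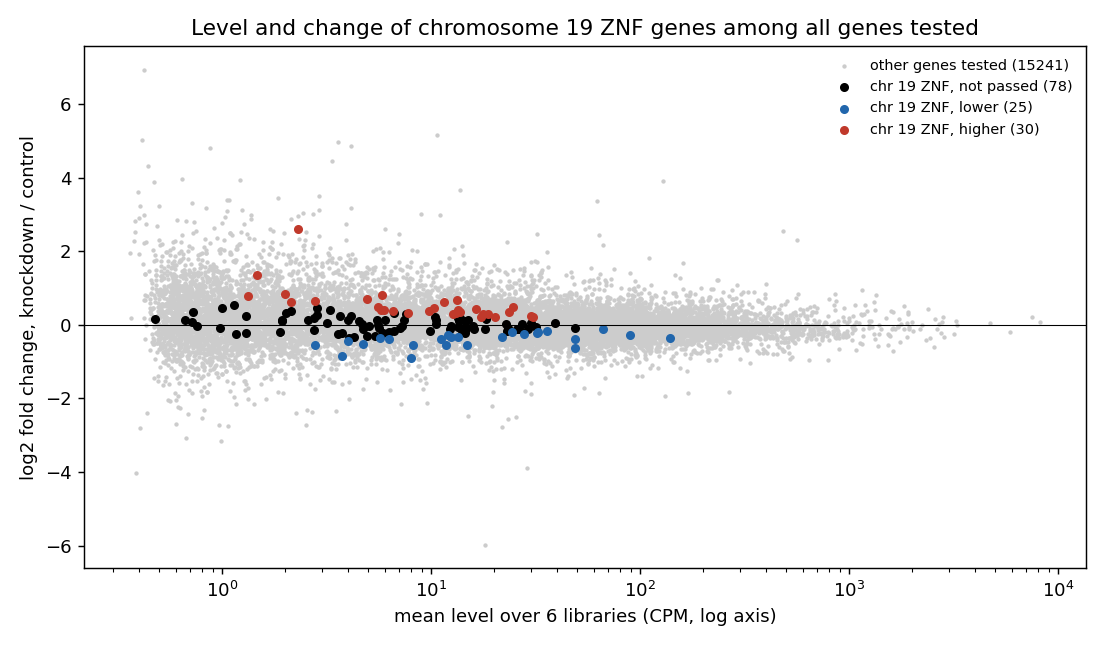
Log2 fold change against mean level over the 6 libraries (CPM, log axis) for the 133 chromosome 19 ZNF genes among the 15241 other genes tested (grey). Most members lie below 20 CPM and within 1 log2 unit of no change, with the lower genes reaching higher levels than the higher ones.

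The largest rise was in ZNF812P (ENSG00000224689, chromosome 19, 9689924 to 9700776, minus strand, GRCh38.p13), which GENCODE lists as a transcribed unprocessed pseudogene. It had 15, 8 and 13 counts in the controls and 70, 63 and 72 after knockdown. Every knockdown library was above every control library. Its level went from 0.647 ± 0.200 to 3.97 ± 0.352 CPM (log2 fold change 2.61 ± 0.281 SE, adjusted p = 8.47e-13). Its neighbour ZNF846 (9751993 to 9793180) had 27, 19 and 34 counts in the controls and 54, 47 and 33 after knockdown. Scaled to library totals the groups came close without overlapping (log2 0.85, adjusted p = 0.00602, and 0.0559 without knockdown replicate 1). On the other side of ZNF812P, ZNF562 fell from 50.2, 58.8 and 56.3 CPM to 42.8, 41.6 and 41.9 CPM, with no overlap (log2 −0.39 ± 0.055 SE, adjusted p = 7.45e-09), and ZNF561 next to it did not pass (0.05, adjusted p = 0.517). The positional group they belong to, from ZNF557 to ZNF846, thus held 4 higher and 6 lower genes among 14. Of all genes tested 26.9% were higher and 27.4% lower.

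A set of 3 neighbours on the long arm rose together. ZNF302 (ENSG00000089335, 34677639 to 34686397, plus strand), ZNF181 (ENSG00000197841, 34734155 to 34745378, plus strand) and ZNF599 (ENSG00000153896, 34758073 to 34773229, minus strand) encode proteins with a KRAB box and 7, 11 and 14 fingers. The first finger of each that is followed by the consensus linker to the next is shown, because duplicated neighbours can share long coding stretches, and reads from these can fit more than 1 gene. The sequences are from the last exon of each gene (exon 7 of 7, 6 of 6 and 4 of 4), from GENCODE release 29 on GRCh38, at chr19:34684644-34684727, chr19:34741096-34741179 and, on the minus strand, chr19:34760033-34760116. Capitals mark the codons of the cysteines and histidines that hold the zinc.
ZNF302: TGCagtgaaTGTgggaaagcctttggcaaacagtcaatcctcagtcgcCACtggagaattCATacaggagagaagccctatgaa
ZNF181: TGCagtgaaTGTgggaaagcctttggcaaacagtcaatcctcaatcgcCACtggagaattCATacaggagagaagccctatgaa
ZNF599: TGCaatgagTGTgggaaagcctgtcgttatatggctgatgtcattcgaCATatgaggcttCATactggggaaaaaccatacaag
The repeats of ZNF302 and ZNF181 are identical at 83 of 84 bases and differ by G44A, with positions counted from 1 at the 5′ end of the repeat and the base of ZNF302 first. ZNF599 matches each of them at 54 of 84 bases.

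Over whole transcripts, 6.06% of the 50-base stretches of ZNF302 were also in ZNF181 and 5.09% of those of ZNF181 in ZNF302, while ZNF599 shared none with either. ZNF302 had 9.83, 10.4 and 10.7 CPM in the controls and 16.7, 17.3 and 15.1 CPM after knockdown. The groups did not overlap (log2 fold change 0.67 ± 0.101 SE, adjusted p = 3.19e-08). ZNF181 had 3.44, 3.74 and 5.62 CPM in the controls and 8.15, 7.05 and 7.08 CPM after knockdown. Control replicate 3 was the highest of its group, and still below all knockdown libraries (0.80 ± 0.158 SE, adjusted p = 1.31e-05). ZNF599, at 15, 18 and 13 counts in the controls and 37, 42 and 31 after knockdown, had the largest rise of a protein-coding member (log2 1.36 ± 0.325 SE, adjusted p = 0.000262). The other tested genes of the neighbourhood, ZNF30 (0.13, adjusted p = 0.670) and ZNF792 (0.25, adjusted p = 0.558), did not pass, and the pseudogene ZNF807P had 1 count in all. ZNF302, ZNF181 and ZNF599 kept their calls without any 1 library, while limma on log2(FPKM + 1) did not call ZNF599 (adjusted p = 0.0511).

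Since these neighbours moved together, their promoters are shown, from the RefSeq table of GRCh38.p14: 300 bases each, from 250 before to 50 after the start, at chr19:34677428-34677727 and chr19:34733993-34734292 on the plus strand and chr19:34773166-34773465 on the minus strand. Capitals mark matches to the GC box GGGCGG, the CCAAT box CCAAT and the ETS motif CCGGAAG, which were searched on both strands.
ZNF302: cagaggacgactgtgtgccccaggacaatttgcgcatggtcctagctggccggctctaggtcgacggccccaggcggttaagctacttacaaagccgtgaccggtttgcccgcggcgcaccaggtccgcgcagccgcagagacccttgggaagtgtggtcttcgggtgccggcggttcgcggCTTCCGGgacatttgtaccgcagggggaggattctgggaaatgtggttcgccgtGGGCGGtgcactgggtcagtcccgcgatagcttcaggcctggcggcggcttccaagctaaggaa
ZNF181: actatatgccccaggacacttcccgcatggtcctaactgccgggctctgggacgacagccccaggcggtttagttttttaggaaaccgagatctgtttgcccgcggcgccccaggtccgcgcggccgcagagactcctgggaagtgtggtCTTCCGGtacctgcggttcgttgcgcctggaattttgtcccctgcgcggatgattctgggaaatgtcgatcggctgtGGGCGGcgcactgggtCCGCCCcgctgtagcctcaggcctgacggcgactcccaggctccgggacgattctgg
ZNF599: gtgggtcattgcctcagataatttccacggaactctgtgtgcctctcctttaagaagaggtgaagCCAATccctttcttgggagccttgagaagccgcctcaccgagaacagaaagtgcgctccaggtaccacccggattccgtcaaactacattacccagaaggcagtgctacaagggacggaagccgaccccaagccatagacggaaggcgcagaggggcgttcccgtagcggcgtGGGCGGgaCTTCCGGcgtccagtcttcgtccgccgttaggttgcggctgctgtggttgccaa
Each holds the ETS letters, here as the reverse complement, and the GC box, and ZNF599 alone of them holds CCAAT. They contain 28, 28 and 21 CpG dinucleotides at 64.3, 63.7 and 58.3% G + C. Both motifs are common among the members: the ETS letters were in 45.2% of their promoters and the GC box in 67.4%. The ETS letters were also in 34 of 69 promoters of members that did not pass. A link of these motifs to the rises was not tested.

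**Figure D3:**
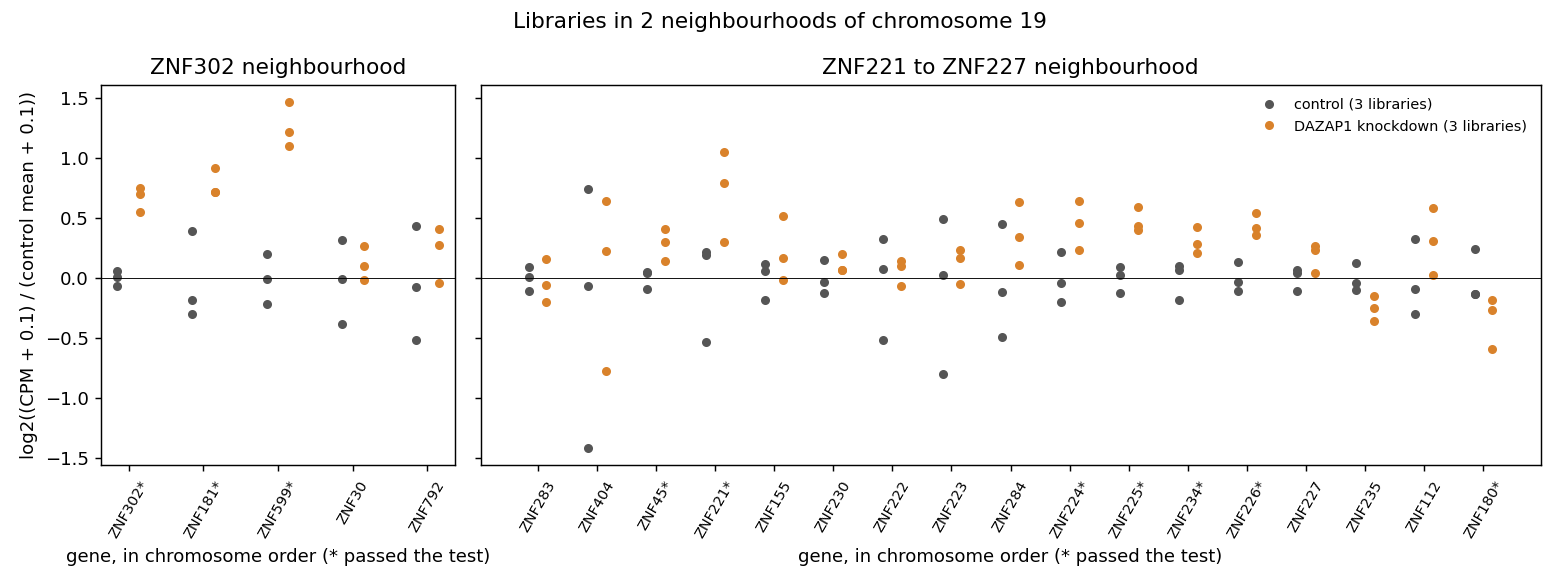
Level of each library relative to the control mean, as log2 of CPM plus 0.1, for the tested ZNF genes around ZNF302 (left) and between ZNF283 and ZNF180 (right), in chromosome order; asterisks mark genes that passed the test. In ZNF302, ZNF181 and ZNF599 all knockdown libraries lie above all control libraries, as they do in ZNF224, ZNF225, ZNF234 and ZNF226. Groups did not overlap in 58.9% of all genes tested.

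Another run of neighbours that rose lay among the KRAB zinc finger genes at ZNF221 to ZNF227. ZNF224 (ENSG00000267680, 44094339 to 44109886), known as a KRAB repressor of the aldolase A gene, went from 1.21 ± 0.182 to 1.71 ± 0.239 FPKM (log2 0.45, adjusted p = 0.000902). ZNF226 (ENSG00000167380, 44165073 to 44178381) went from 13.9 ± 1.22 to 18.9 ± 1.22 CPM (0.44 ± 0.093 SE, adjusted p = 3.83e-05). Between them ZNF225 (0.48, adjusted p = 0.00552) and ZNF234 (0.31, adjusted p = 0.0104) also rose. The call of ZNF234 was lost without control replicate 1 (adjusted p = 0.109) or knockdown replicate 3 (0.0831). ZNF221, at 21, 12 and 21 counts in the controls and 22, 30 and 35 after knockdown, passed with adjusted p = 0.0400, and did not without control replicate 2, knockdown replicate 2 or knockdown replicate 3 (0.0921 to 0.210). ZNF45 rose slightly (0.29, adjusted p = 0.00496), and did not pass without knockdown replicate 2 (0.0603). ZNF155, ZNF230, ZNF222, ZNF223 and ZNF284, which lie between ZNF221 and ZNF224, did not pass, nor did ZNF227 (0.18, adjusted p = 0.119). At the end of the same group of 23 genes ZNF180 and ZNF296 fell. The group thus held 6 higher and 4 lower genes of 20 tested, while 54.2% of all genes tested were called. With ZNF114, the next member along the chromosome, ZNF180 and ZNF296 made a run of 3 falls that spanned 3.81 Mb.

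The longest run of neighbours called in 1 direction held 5 genes, ZNF772, ZNF419, ZNF773, ZNF549 and ZNF550, between 57466663 and 57559863 near the end of the long arm. These runs were picked out after their values were seen. The rises were small, with log2 fold changes of 0.22, 0.38, 0.31, 0.40 and 0.35 and adjusted p of 0.0356, 0.00509, 0.0383, 0.0174 and 0.00296. Groups did not overlap in 58.9% of all genes tested, and these 5 genes were picked because they were called higher. In each of them the 3 knockdown libraries were above the 3 control libraries. ZNF550, for example, had 13.7, 12.7 and 10.1 CPM in the controls and 15.7, 15.3 and 15.4 CPM after knockdown. ZNF419 lost its call without knockdown replicate 3 (0.0868), ZNF549 without knockdown replicate 1 (0.0691) and ZNF550 without control replicate 3 (0.0746). ZNF772 lost it without control replicate 1 or 2 or knockdown replicate 1 or 2 (0.0815 to 0.157), and ZNF773 without any library except knockdown replicate 2 (0.0507 to 0.327). ZNF549 and ZNF550 overlap on opposite strands, and ZNF419 and ZNF773 both overlap 1 further gene on their own strand. The sources used here do not state whether counting used strand, and reads of such pairs may not be told apart. The overlaps are of whole gene spans, and exons were not compared. Further along, ZNF551 rose from 20.7 ± 0.690 to 26.4 ± 2.35 CPM (0.35, adjusted p = 0.000110). ZNF417, which with its near copy ZNF587 is known in human embryonic stem cells to repress endogenous retroviruses, was called higher (0.33, adjusted p = 0.00548), and ZNF587 did not pass (−0.04, adjusted p = 0.596). The call of ZNF417 was lost without control replicate 1 or 2 (0.0504 and 0.0561). Of the 50-base stretches of ZNF417, 37.6% are found in another gene, so this pair is uncertain. The whole terminal group, ZNF628 to ZNF446, held 9 higher and 6 lower genes among 47 tested, and 32 did not pass. Its median was −0.01. Of all genes tested 54.2% were called, 26.9% as higher and 27.4% as lower.

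Other rises were scattered. ZNF555 (2841437 to 2860471) had 3.22, 3.63 and 4.39 CPM in the controls and 6.32, 5.25 and 6.78 CPM after knockdown (log2 0.70 ± 0.167 SE, adjusted p = 0.000226). Its neighbour ZNF554 rose by 0.64 (adjusted p = 0.0115, and 0.0746 without knockdown replicate 3), and the other tested genes of that short-arm group, ZNF556, ZNF57 and ZNF77, did not pass. ZNF358 (ENSG00000198816, 7515292 to 7521025) varied little within groups, at 9.17, 8.92 and 9.20 CPM in the controls and 13.8, 14.2 and 14.2 CPM after knockdown (0.63 ± 0.107 SE, adjusted p = 6.41e-07). ZNF473, whose product ZFP100 takes part in the 3′ end processing of histone pre-mRNA, had 21.5, 18.6 and 21.3 CPM in the controls and 27.6, 30.0 and 28.7 CPM after knockdown. The groups did not overlap (0.49 ± 0.077 SE, adjusted p = 8.77e-08). ZNF473 overlaps VRK3 on the opposite strand. ZNF175 (OTK18), a zinc finger gene known from HIV-infected macrophages, was called with overlapping groups (0.63, adjusted p = 0.0338), and lost its call without control replicate 1 or 3 or knockdown replicate 1 or 3 (0.0781 to 0.180). DESeq2 did not call ZNF846, ZNF554 (adjusted p = 0.0692), ZNF221 (0.145) or ZNF175 (0.146), and limma on log2(FPKM + 1) did not call ZNF555 (0.0678).

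**Figure D4:**
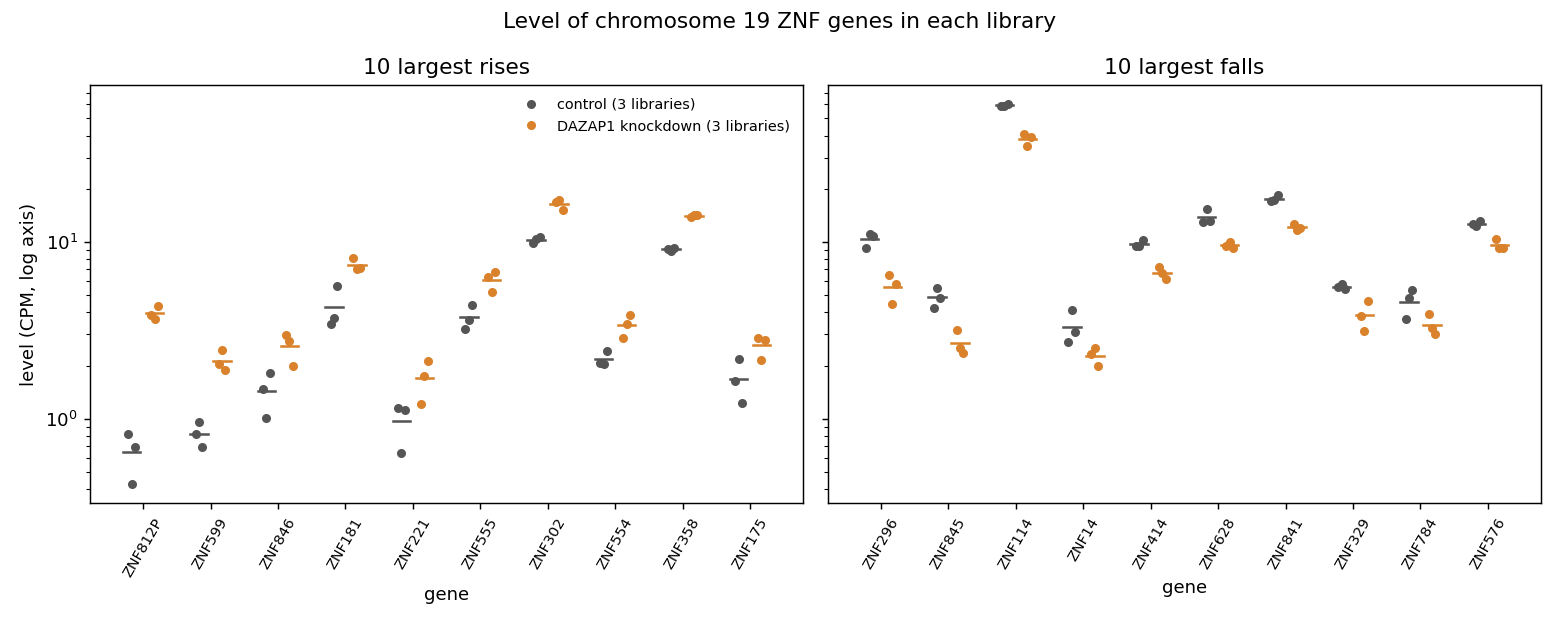
Level (CPM, log axis) in each of the 3 control and 3 knockdown libraries for the 10 largest rises (left) and 10 largest falls (right) among called members whose higher group averaged at least 1 CPM; bars are group means. Most rises are below 10 CPM, while ZNF114, among the falls, went from 59.2 to 38.4 CPM.

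The largest fall was in ZNF296 (ENSG00000170684, 45071500 to 45076587, minus strand), whose mouse counterpart is a gene of embryonic stem cells. It had 9.28, 11.2 and 10.8 CPM in the controls and 6.54, 4.43 and 5.75 CPM after knockdown. The groups did not overlap (log2 −0.90 ± 0.135 SE, adjusted p = 2.98e-08). ZNF845 (53333749 to 53356906), which with 26 fingers has the longest array among the members, fell from 4.86 ± 0.622 to 2.68 ± 0.425 CPM (−0.85 ± 0.190 SE, adjusted p = 8.86e-05). ZNF114 (ENSG00000178150, 48270081 to 48287608), a KRAB gene with 3 fingers, had 58.5, 58.8 and 60.4 CPM in the controls and 41.1, 34.9 and 39.2 CPM after knockdown. This was the smallest adjusted p of any member (2.88e-16; log2 −0.62 ± 0.055 SE). ZNF628 fell from 13.9 ± 1.35 to 9.59 ± 0.395 CPM (−0.53, adjusted p = 2.01e-05), ZNF841 from 17.6 ± 0.764 to 12.2 ± 0.495 CPM (−0.53, adjusted p = 1.83e-06), and ZNF414 by 0.54 (adjusted p = 0.000217) on the log2 scale. ZNF576 fell by 0.40 (adjusted p = 0.00151). These genes kept their calls without any 1 library. ZNF14 (−0.54, adjusted p = 0.0357), ZNF329 (−0.53, adjusted p = 0.00565) and ZNF784 (−0.43, adjusted p = 0.0415) did not. ZNF14 lost its call without control replicate 2 or knockdown replicate 1 or 3 (0.0675 to 0.228), ZNF329 without knockdown replicate 2 (0.0624), and ZNF784 without control replicate 2 or 3 or knockdown replicate 2 or 3 (0.0956 to 0.212). DESeq2 did not call ZNF14 (0.140) or ZNF784 (0.166), and with upper-quartile scaling they missed the threshold as well (0.0572 and 0.0724). Several falls touch overlapping genes: ZNF296 and GEMIN7-AS1, ZNF114 and ZNF114-AS1, ZNF841 and ZNF432, and ZNF576 and SRRM5.

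Of the 5 members with the highest levels per length, 4 were called lower. Among all genes tested 27.4% were called lower, and 41.3% of those at 20 CPM or more. ZNF146 (OZF, ENSG00000167635, 36214602 to 36238771), whose protein is made almost wholly of fingers and which is known to be raised in several carcinomas, was the highest at 37.0 ± 1.08 FPKM in the controls and 29.8 ± 0.611 FPKM after knockdown. It had 150.7, 155.0 and 159.7 CPM in the controls and 122.2, 124.1 and 119.3 CPM after knockdown, with no overlap (log2 −0.35 ± 0.034 SE, adjusted p = 2.22e-14). ZNF146 overlaps ZNF565 on the opposite strand. ZNF787, next at 26.2 FPKM in the controls and 22.2 after knockdown, fell by 0.28 on the log2 scale (adjusted p = 3.89e-08). ZNF114 followed with 19.4 and 12.9 FPKM. ZNF317, at 13.5 and 12.9 FPKM, was called by a small margin (−0.11, adjusted p = 0.0471), and only control replicate 1 could be left out without losing the call (0.0544 to 0.182). It was not called by DESeq2 (0.130) or with upper-quartile scaling (0.304). The fifth, ZNF581, had 9.23 and 8.79 FPKM and did not pass. The members with the highest CPM that did not pass were ZNF121 (log2 −0.08), ZNF544 (0.05), ZNF587 (−0.04) and ZNF561 (0.05), and the last 3 change sign under another scaling or with the length trend removed. With that trend removed ZNF121 passed as a fall (−0.16, adjusted p = 0.00826). ZNF274, a KRAB zinc finger protein known to recruit SETDB1 to the 3′ ends of zinc finger genes, fell from 34.4 ± 1.29 to 29.8 ± 0.967 CPM (−0.21, adjusted p = 0.00438).

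Another set of members was almost without counts. Of the 25 members not tested, 16 had at most 5 counts over the 6 libraries together, and 12 had at most 1 count in every library. ZNF420, ZNF790, ZNF443, ZNF528, ZNF610, ZNF611 and ZNF813 each had 1 count in all. The group from ZNF175 to ZNF813 on the long arm holds 9 of the untested members among its 19, and 6 of the 8 pseudogenes among the members were not tested. The highest total among the untested genes was 56 counts, in ZNF575. The main fit did not test these genes, so it does not say whether they differed between the groups. A fit with no filter on low counts took in all 158 members, and its 46 calls were all among the 55 of the main fit.

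Fingers and the KRAB box were looked for in the longest coding sequence of each gene in GENCODE release 29. Of the members, 150 had a coding sequence, with 1 (ZNF428) to 26 fingers and a median of 12. With a KRAB motif that ends in glutamate and tryptophan, 95 members matched. Of the 83 tested, 18 were higher and 12 lower (median log2 fold change 0.03), against 11 and 13 of the 48 tested without a match (median 0.05). In all, 36.1% of the matched genes were called, and 24 of the 48 others. That form misses ZNF224 and its neighbours, where the last residue is leucine, and a form with either residue was added after the data were seen. With it 110 members matched, and of the 97 tested 24 were higher and 12 lower (median 0.12), against 5 higher and 13 lower of 34 without a match (median −0.11). These are 37.1% and 52.9% called, beside 26.9% higher and 27.4% lower among all genes tested. The classes therefore split differently under the second form, and the difference was not tested. They also differed in other ways: the median G + C of the coding sequence was 43.9% with and 62.6% without the second motif, the median length 5665 and 4021 bp, and the median level 7.11 and 11.7 CPM. With the length trend removed, 19 matched genes were higher and 17 lower (median 0.04), against 3 and 16 without a match (−0.18), while 3306 genes were higher and 5227 lower in all. A gene without a match, such as ZNF473, may still encode a KRAB domain of other letters.

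**Figure D5:**
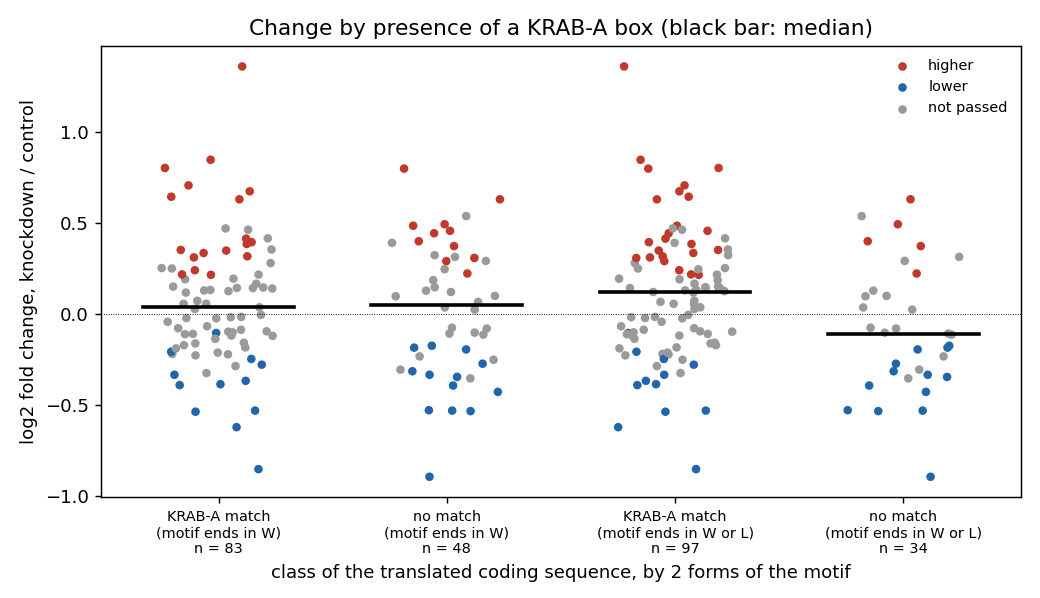
Log2 fold change of each tested member by whether its coding sequence matched the KRAB motif, under the first form (left pair) and the wider form added after the data were seen (right pair); black bars are medians and ZNF812P and the other pseudogene tested are not drawn. The medians are 0.03 and 0.05 under the first form and 0.12 and −0.11 under the wider form.

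The promoters of these genes were compared for features that the choice of members did not use. RefSeq promoters were matched for 135 members and set against 27305 promoters of all genes, each of 300 bases. The ETS motif CCGGAAG, on either strand, was in 61 of 135 (45.2%) and in 10.7% of all promoters, and in 35.9% of those of numbered ZNF genes on other chromosomes. The GC box GGGCGG was in 67.4% of the members' promoters, 44.6% of all and 63.5% of those of ZNF genes elsewhere, and CCAAT in 52.6, 35.7 and 45.8%. The cyclic AMP response element TGACGTCA was in 5.19, 1.98 and 3.65%, and the palindromic NRF1 motif in 10.4, 8.78 and 15.1%. The median number of CpG dinucleotides was 22, and 14 over all promoters. By outcome, CCGGAAG was in 13 of 25 promoters of higher genes, 7 of 24 of lower genes, 34 of 69 of genes that did not pass and 7 of 17 of untested genes. A match of letters is a description of the sequence, and duplicated genes share promoter sequence.

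Beside the zinc finger genes, 30 genes of repression and heterochromatin, not all of them partners of KRAB proteins, were examined as a cofactor list. Of these 16 were higher and 6 lower (73.3% called, against 54.2% of all genes and 69.9% of those at 20 CPM or more), with a median log2 fold change of 0.11. The higher genes were 53.3% of the 30, and 26.9% of all genes tested were higher and 27.4% lower. With the length trend removed 8 were higher and 7 lower, and 3306 and 5227 of all genes. TRIM28, the scaffold that binds the KRAB domain, had 471.9 ± 8.22 CPM in the controls and 455.3 ± 10.1 CPM after knockdown and did not pass (−0.05, adjusted p = 0.0641). SETDB1, the methyltransferase it recruits, had 3.48 and 3.47 FPKM and did not pass either (−0.04, adjusted p = 0.694). CBX5, the HP1 alpha protein, rose from 42.3 ± 0.729 to 75.6 ± 2.82 CPM (0.84 ± 0.050 SE, adjusted p = 1.31e-24). The de novo DNA methyltransferase DNMT3A rose from 3.23 ± 0.467 to 8.54 ± 0.230 CPM (2.64-fold, adjusted p = 2.29e-12). RESF1, which takes part in silencing of endogenous retroviruses with SETDB1, rose from 21.1 to 34.0 CPM (0.69, adjusted p = 2.40e-13). Smaller rises were in the methyltransferase EHMT2 (0.36), the SETDB1 partner ATF7IP (0.33), MORC2 (0.23) and the nucleosome remodeller CHD3 (0.22). The histone methyltransferase SUV39H2 (−0.35), the deacetylase HDAC1 (−0.21), MTA2 (−0.16), UHRF1 (−0.15), PPHLN1 (−0.11) and CBX3 (−0.10) fell.

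For comparison, the table holds 249 numbered ZNF genes on other chromosomes, of which 224 were tested, 60 were higher and 43 lower (46.0% called, median 0.02). The other genes of chromosome 19 had 195 higher and 244 lower of 796 tested (55.2% called, median −0.03). Differences between these sets and the chromosome 19 ZNF genes were not tested.

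Shared sequence bears on how far single members can be read. The median share of a member's 50-base stretches found in transcripts of another gene was 2.33%, and 35 members were above 10%. Of the 27 of these that were tested, 3 were higher and 1 lower (14.8% called), against 27 higher and 24 lower of 106 with at most 10% (48.1%), and 54.2% of all genes tested were called. The groups did not overlap in 37.0% and 49.1% of these 2 classes, and in 58.9% of all genes tested. The difference between the classes was not tested, and their levels were not compared. How reads that fit several genes were counted is not stated, so values of the 35 are uncertain. By position, 90 members overlap another gene of the table, 44 on the same strand and 65 on the opposite one. Of those tested, 18 were higher and 11 lower among 76 that overlap (38.2% called) and 12 and 14 among 57 that do not (45.6%).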

How the data were processed

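RNA of 3 control and 3 DAZAP1 knockdown libraries of Cal27 was sequenced after TRIzol extraction, per the labels' protocols. The authors deposited raw counts per gene and, in another file, FPKM, each for 30947 genes. The deposited count columns are whole numbers whose totals differ, and the deposited FPKM values were used for levels between genes and in alternatives. The build GRCh38.p13 and Bowtie are named, per the submitters' processing notes, without their role. Which counter and annotation were used, whether strand counted, and how reads that fit several genes were treated is not given in the sources used here. Columns were matched to samples by prefix and replicate number, and 0 value columns were left unmatched.

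The fit used edgeR 4.0.16 in R 4.3.3: filterByExpr (minimum count 10; 15374 genes kept), TMM scaling (factors 0.987 to 1.013), and a robust quasi-likelihood test (glmQLFTest after glmQLFit) of group alone, adjusted by Benjamini-Hochberg over all genes tested at 0.05. CPM use the TMM-scaled totals. Means carry the SD over 3 libraries, and SEs were derived from the fold change and its F statistic. The totals of 16333542 to 18955230 counts set the precision, and the biological coefficient of variation was 3.13%. Libraries of a group differed by more than counting noise. Tested on simulated data for this comparison (15374 genes, all with the same dispersion), the test recovered 86 of 100 genes changed by 2-fold. Only 2 members changed by that much, and recovery of smaller changes cannot be read from this figure.

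The members and lists were chosen with earlier results of these data known. Named are the 10 largest rises and 10 largest falls among called members whose higher group averaged at least 1 CPM, the 5 smallest p-values in each direction, the 5 highest by FPKM, the 4 highest by CPM that did not pass, DAZAP1 and the cofactor list. Members named only as neighbours, in runs, or for a known role were chosen after their values were seen. Positional groups are runs of members whose starts lie within 1 Mb. Shared sequence was counted as 50-base stretches of a gene's GENCODE release 29 transcripts found in transcripts of another gene. Alternatives were DESeq2 1.42.0, other scalings and filters, a gene length trend removed, limma 3.58.1 on log2(FPKM + 1) and log2(FPKM + 0.1), the replicate number as a block, and each library left out in turn.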

Additional observations from a re-analysis of the deposited data

How the results depend on the processing

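With median-of-ratios scaling, no filter or a stricter filter on low counts, the numbers of higher and lower chromosome 19 ZNF genes stayed within 1.5 times those reported. With each library left out in turn, they ran from 22 to 27 higher and 19 to 24 lower, and 14 of the 30 higher and 15 of the 25 lower genes were called in all 6 fits. The median log2 fold change of these genes ran from 0.0060 to 0.052 there, was 0.083 with upper-quartile scaling, 0.070 with library size scaling, −0.024 with the length trend removed, 0.0086 with limma on log2(FPKM + 1) and −0.021 with limma on genes of at least 1 FPKM, so its sign is not settled. The median of all genes moved as well. It was 0.0024 in the main fit, 0.051 with upper-quartile scaling, 0.038 with library size scaling and −0.064 with the length trend removed. With limma it was 0.023 on log2(FPKM + 1) and 0.0039 on genes of at least 1 FPKM. DESeq2 called 17 higher and 15 lower, 37 and 30 ZNF genes on other chromosomes, and 3163 and 3570 genes in all. Limma on log2(FPKM + 1) called 12 higher and 11 lower members, 30 and 20 ZNF genes elsewhere, 10 and 2 cofactor genes, and 3163 higher and 2756 lower of 30947 genes in all. On log2(FPKM + 0.1) it called 13 and 11 members, 34 and 20 ZNF genes elsewhere, 11 and 2 cofactor genes, and 3303 and 2871 of 30947 genes in all. On genes of at least 1 FPKM it called 20 higher and 14 lower members, 39 and 30 ZNF genes elsewhere, 16 and 3 cofactor genes, and 3354 and 3277 genes in all. With the length trend removed 8 cofactor genes were higher and 7 lower, and 3306 and 5227 genes in all. Without 1 library, 51 to 55 ZNF genes elsewhere were higher and 36 to 44 lower, 12 to 16 cofactor genes higher and 5 to 7 lower, and 3721 to 3905 genes in all higher and 3911 to 4104 lower. The cause of these shifts was not tested. Signs turned in 3 members that did not pass: ZNF544 (−0.028) and ZNF561 (−0.022) with the length trend removed, and ZNF587 with upper-quartile scaling (0.0040) and without knockdown replicate 3 (0.017, in a range of −0.095 to 0.017 without 1 library).

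The replicate numbers gave no sign of pairing (correlations of the deviations 0.0028, −0.00078 and −0.0063 for the 3 numbers). With the replicate block 31 members were higher and 25 lower, and 54 of the 55 calls were kept. Low counts limit the members under 5 CPM, and a gene that did not pass may still differ. Grouping members by gaps of 0.5 Mb in place of 1 Mb gave 23 positional groups in place of 18.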
